A study of Arabidopsis thaliana with 6 samples.

Results

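The transcripts encoded by the mitochondrial and plastid genomes of Arabidopsis thaliana were chosen by their gene identifiers, which begin with ATMG or ATCG. They numbered 251 of the 45666 transcripts measured, 132 from the mitochondrial genome and 119 from the plastid genome, with 1 transcript per gene. RNA sequencing covered 3 wild-type (Col-0) and 3 mutant (cdc5) libraries, each labelled as rosette leaves, and the series title concerns flowering time. No treatment, age or growth stage is stated for the libraries. The mutant titles end in the same numbers as those of the wild type, and they can be read as replicates or as names of alleles. The labels do not say whether each library had its own plants, and p-values therefore reflect the spread between samples, part of which may be technical.

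Both organelles keep a small genome of bacterial origin. The mitochondrial genome encodes subunits of the respiratory chain, a few ribosomal proteins, rRNAs and tRNAs, and many open reading frames with no known function. The plastid genome encodes subunits of the photosystems, the large subunit of Rubisco, ribosomal parts and the core of a bacterial-type RNA polymerase, while phage-type polymerases encoded in the nucleus transcribe both genomes. In plant organelles a poly(A) tail marks an RNA for decay, in contrast to nuclear mRNA. RNA was selected here with oligo(dT) beads, so a level is that of organelle RNA carried through this selection and not of all RNA of an organelle.

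Levels were FPKM, fragments scaled by transcript length and by the library total. Depth, estimated from the values, lay between 19.3 and 23.9 M fragments for Col-0 and between 20.1 and 25.7 M for cdc5, and a floor of 3 fragments over 1 kilobase lay between 0.117 and 0.155 FPKM. Floors cover counting error only. CDC5, the gene mutated in cdc5, had a level of 21.3 ± 0.418 FPKM (SD, n = 3) in the mutant against 37.1 ± 1.08 (n = 3) in the wild type, a log2 difference of -0.77 (limma adjusted p = 2.3e-06). Leaf markers such as RBCS1A and RCA were abundant in every library, and their summed level was 7426 to 8465 FPKM for Col-0 and 8945 to 9218 for cdc5. All 7 floral and pollen markers were detected as well, with AP3, a petal and stamen identity gene, at 140 FPKM for Col-0 and 104 for cdc5. The sum of these 7 markers ran from 1352 to 1430 FPKM for Col-0 and from 1119 to 1166 for cdc5, none was at 0, and 4 of the 7 were called lower and 0 higher. Of the 5 leaf markers 4 were called higher and 0 lower, and of all genes tested 33.3% were called higher and 22.4% lower. The libraries therefore held floral transcripts in spite of their label, and the part of this difference in the results below was not tested. In bulk RNA, fewer organelles or cells and less RNA in each cannot be told apart.

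Transcripts of the mitochondrial genome were lower in cdc5, and those of the plastid genome gave no call in either direction with all 6 libraries. The summed mitochondrial level was 184, 240 and 266 FPKM in Col-0 replicates 1, 2 and 3 and 81.8, 106 and 80.9 FPKM in cdc5 replicates 1, 2 and 3. The genotypes did not overlap, and the mean of 89.4 ± 14.0 FPKM in cdc5 was 38.8% of the 230.2 ± 41.8 in Col-0. The summed plastid level was 317, 536 and 601 FPKM for Col-0 and 283, 423 and 394 for cdc5, and here the genotypes overlapped. Its mean was 484.7 ± 149 FPKM for Col-0 and 366.7 ± 73.7 for cdc5.

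The choice of RNA classes set how far the sums differed. Without rRNA and tRNA, the mitochondrial sum in cdc5 was 26.2% of that in Col-0, at 22.3 ± 3.20 FPKM against 85.1 ± 12.9. The plastid sum without these classes was 96.1 ± 20.2 FPKM for Col-0 and 103 ± 7.01 for cdc5, which is the reverse of its direction with them. Counted as fragments, where long RNAs weigh more, the mitochondrial transcripts took 303 per 1 M fragments in Col-0 and 149 in cdc5, and the plastid transcripts 916 and 653. The ratio of the mitochondrial to the plastid sum was 0.581, 0.447 and 0.443 in Col-0 and 0.289, 0.250 and 0.205 in cdc5, with no overlap. The summed nuclear level was 95.8% of Col-0 in cdc5.

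**Figure D1:**
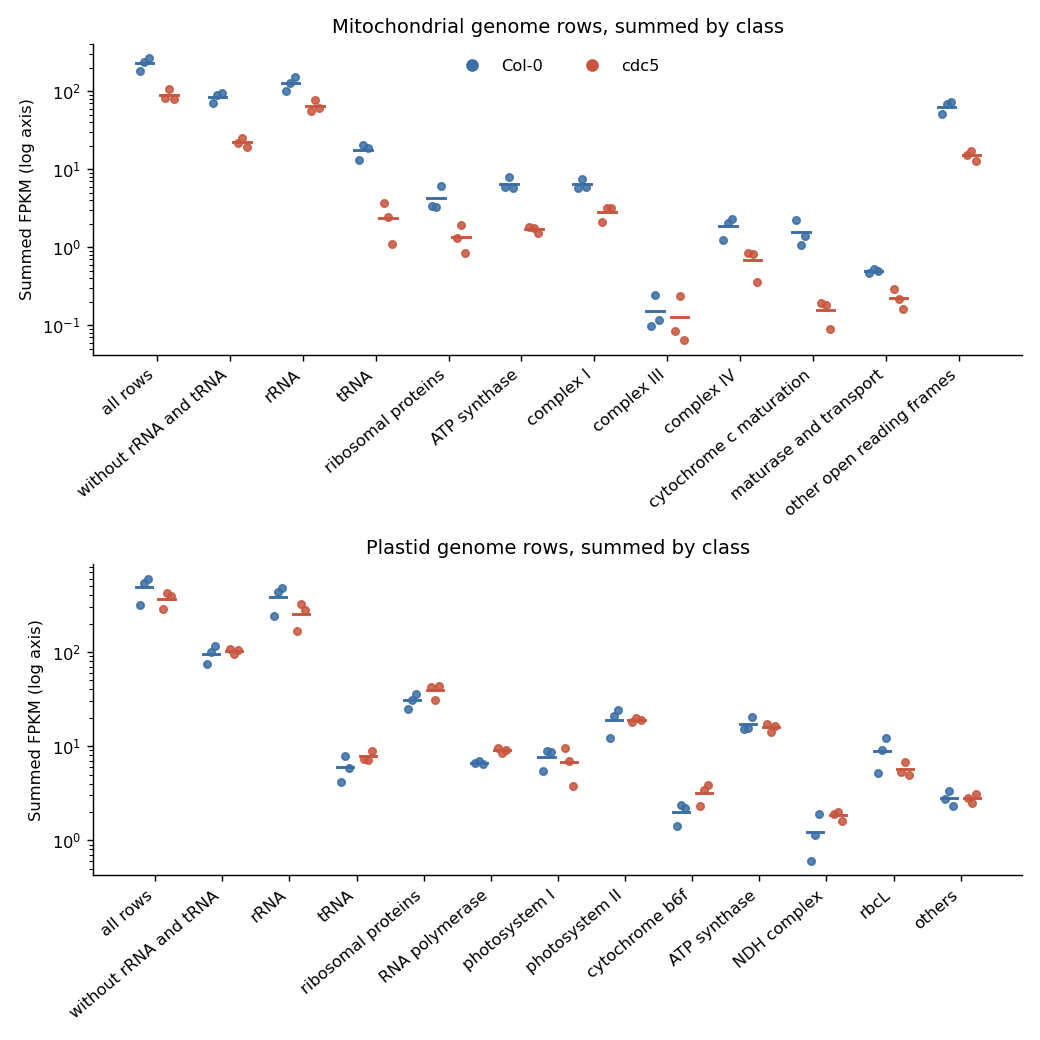
Summed FPKM (log axis) of the mitochondrial (top) and plastid (bottom) transcripts by functional class, with 1 point per library and a line at the mean of 3 libraries. Every cdc5 library lies under every Col-0 library in all mitochondrial classes but complex III, whereas the plastid classes overlap except for the RNA polymerase genes, which are higher in cdc5.

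Over single transcripts, all cdc5 libraries lay below all Col-0 libraries for 54 of the 132 mitochondrial transcripts and above them for 0, where 14.8% of all transcripts were lower and 22.6% higher in this sense. For the plastid genome these counts were 5 lower and 14 higher of 119, both under the share among all transcripts. The mean was lower in cdc5 for 117 of 132 mitochondrial and 54 of 119 plastid transcripts, against 44.2% of all transcripts, of which 55.8% had a higher mean. In cdc5, 30 mitochondrial transcripts were listed at 0 in every library. The matching counts for Col-0 and for all transcripts are not given here, so this count does not compare the genotypes. Levels were low: 83 mitochondrial and 54 plastid transcripts had a mean at or under the floor of 3 fragments in both genotypes, and 16 and 45 were shorter than 200 bases.

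**Figure D2:**
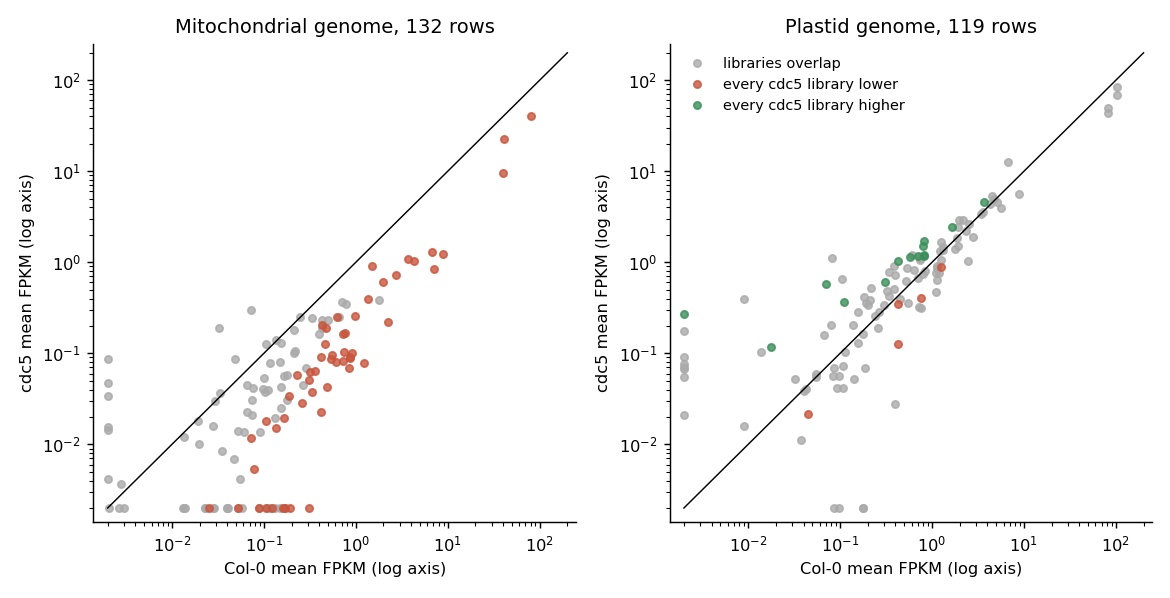
Mean FPKM in cdc5 against mean FPKM in Col-0 (log axes) for the 132 mitochondrial and 119 plastid transcripts, coloured by whether the libraries of the genotypes overlap, with means under 0.002 drawn at the edge. Most mitochondrial points lie under the line of equal level, and plastid points lie on both sides of it.

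The test across transcripts used limma on log2(FPKM + 1) for the 27441 transcripts whose mean reached 1 FPKM, and it adjusted p-values over all of them. Of 13 mitochondrial transcripts that entered it, 9 were called lower and 0 higher at an adjusted p under 0.05, and at an unadjusted p under 0.05 the counts were 12 and 0. Among all tested transcripts 13.2% were called lower and 17.8% higher, and at an unadjusted p under 0.05 these shares were 17.6% and 24.7%. The level for entry was the mean of all 6 libraries, and 6 of the 13, among them 3 of the 9 called, had a cdc5 mean under 1 FPKM and entered through their Col-0 level, so the 13 are partly selected by the difference itself. Of 36 plastid transcripts tested, limma called 0 in either direction, and at an unadjusted p under 0.05 there were 0 lower and 3 higher. The median log2 fold change of the transcripts that entered was -1.16 for the mitochondrial genome (-1.78 with a pseudocount of 0.1), -0.04 for the plastid genome and 0.07 for all. With no filter on level it was -0.14 over the 132 mitochondrial transcripts, 0.01 over the 119 plastid transcripts and 0.03 over all. Without that filter, 29 of 132 mitochondrial and 0 of 119 plastid transcripts were called lower, beside 7.47% of all.

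The authors' deposited table marks 38 mitochondrial transcripts as significantly lower and 0 as higher. It marks 0 plastid transcripts as lower and 2 as higher, which are PSBD, a reaction-centre protein of photosystem II, and CEMA, a protein of the inner envelope. Across all transcripts the authors' deposited table marks 4.82% as lower and 7.37% as higher. Every marked mitochondrial transcript had a ratio of cdc5 to Col-0 means of 0.477 (MATR, the intron maturase) or less. The marked plastid transcripts had ratios of 2.404 (CEMA) and 13.65 (PSBD). Both had a mean under 1 FPKM over the 6 libraries and did not enter the limma test above. The ratio of PSBD therefore rests on a very low Col-0 mean. RRN18, a mitochondrial rRNA that limma called lower, is not marked, with means of 79.8 FPKM for Col-0 and 40.6 for cdc5. Whether the marks carry a cut on the fold, which the limma calls lack, was not tested.

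The rRNAs formed the largest part of both sums. RRN18, the small-subunit rRNA of the mitochondrial ribosome (361350 to 363284 on the minus strand of the mitochondrial genome, as the table gives it), stood at 65.5, 80.1 and 93.7 FPKM for Col-0 and 37.6, 48.7 and 35.5 for cdc5. It fell by a log2 fold change of -0.96 ± 0.174 (SE) at a limma adjusted p of 0.012, and the genotypes did not overlap. RRN5, the 5S rRNA, stood at 5.36, 7.85 and 6.94 FPKM for Col-0 and 0.625, 1.08 and 2.17 for cdc5. Its log2 fold change was -1.79 ± 0.285 (SE) at a limma adjusted p of 0.0078, though it is only 118 bases long. RRN26, the large-subunit rRNA, stood at 41.1 ± 11.4 FPKM for Col-0 and 22.9 ± 4.95 for cdc5 without overlap. Its log2 fold change of -0.81 was not called (limma adjusted p = 0.062), and without Col-0 replicate 1 it passed (limma adjusted p = 0.040). Leaving out each of the other libraries in turn gave no call for RRN26 (limma adjusted p of 0.073 to 0.15).

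ORF111D and ORF107A, which lie near these rRNA genes, were lower as well. Other neighbours were not examined, and the mean was lower in cdc5 for 117 of all 132 mitochondrial transcripts. A link between position and level was not tested. ORF111D, an open reading frame on the same strand and 9 bases from RRN5, stood at 3.71, 4.23 and 4.85 FPKM for Col-0 and 1.43, 0.823 and 0.856 for cdc5. It fell by a log2 fold change of -1.38 ± 0.173 (SE) at a limma adjusted p of 0.0037. RRN5 itself lies 170 bases from RRN18. ORF107A, the most abundant open reading frame and 502 bases from RRN26 on the other strand, stood at 30.6, 41.7 and 47.2 FPKM for Col-0 and 8.05, 11.9 and 8.72 for cdc5. Its log2 fold change was -1.95 ± 0.208 (SE) at a limma adjusted p of 0.0024.

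Both mitochondrial tRNA transcripts that entered the test were called lower, and they lie in a repeated stretch. ATMG09450 and ATMG09730 are 80 bases long each and are copies in a repeat, so fragments cannot be assigned to either with certainty. Together they stood at 11.9, 19.4 and 16.5 FPKM for Col-0 and at 3.11, 1.98 and 1.11 for cdc5. Log2 fold changes were -2.15 (SE 0.263) for ATMG09450 and -2.14 (SE 0.247) for ATMG09730, with limma adjusted p-values of 0.0035 and 0.0029. The mean of each in cdc5 was under the floor for its length. As a class, the 14 tRNA transcripts stood at 13.8% of Col-0, from 17.5 ± 3.88 to 2.41 ± 1.27 FPKM, and 12 of them were at or under the floor in both genotypes.

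Transcripts for respiratory complexes were low and mostly lower in cdc5. The ATP synthase genes summed to 6.57 ± 1.20 FPKM for Col-0 and 1.71 ± 0.144 for cdc5, which is 26.1% of Col-0. Of their 6 transcripts 5 were lower without overlap, beside 14.8% of all transcripts, and 3 were above the floor only in Col-0. ATP9, the ring subunit of the ATP synthase, stood at 2.69, 3.26 and 2.23 FPKM for Col-0 and 0.946, 0.728 and 0.522 for cdc5. It fell by a log2 fold change of -1.10 ± 0.178 (SE) at a limma adjusted p of 0.0082. ATP1, its alpha subunit, had a mean of 1.37 FPKM for Col-0 and 0.392 for cdc5, and was under the level that entered the test.

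Complex I, the NADH dehydrogenase, summed to 6.42 FPKM for Col-0 and 2.84 for cdc5, or 44.3%. That sum includes NAD5B, a transcript of only 22 bases, and without it the share was 52.8%. NAD5B was not called (limma adjusted p = 0.11). Over the alternative fits listed at the end its limma adjusted p ran from 0.021, without Col-0 replicate 3, to 0.26. Of the 14 complex I transcripts 4 were lower without overlap, beside 14.8% of all transcripts. In both genotypes 9 of the 14 were at or under the floor, and 3 had a higher mean in cdc5. NAD9, a peripheral subunit, had a log2 fold change of -0.38 that was not called (limma adjusted p = 0.22). Complex IV, cytochrome c oxidase, stood at 36.0% of Col-0, with COX2 at 0.992 FPKM for Col-0 and 0.254 for cdc5. COB, the single mitochondrial gene of complex III, stood at 0.154 FPKM for Col-0 and 0.130 for cdc5 with overlap between the genotypes.

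The genes of cytochrome c maturation, whose products attach haem to cytochrome c, had low levels. Their 5 transcripts summed to 2.22, 1.06 and 1.39 FPKM for Col-0 and 0.195, 0.183 and 0.0892 for cdc5, which is 10.0% of Col-0. None of the 5 was above the floor in cdc5, and 3 were at or under it in both genotypes. CCB206, a membrane subunit, stood at 0.850 FPKM for Col-0 and 0.0687 for cdc5. The 7 ribosomal protein transcripts summed to 32.0% of Col-0, and the intron maturase MATR stood at 0.428 FPKM for Col-0 and 0.204 for cdc5.

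Open reading frames of no known function made up 77 of the 132 mitochondrial transcripts. They summed to 63.7 ± 11.0 FPKM for Col-0 and 15.1 ± 2.12 for cdc5, or 23.8%. Of the 77, 29 were lower without overlap, beside 14.8% of all transcripts. In both genotypes 58 of the 77 were at or under the floor. In every cdc5 library 24 were listed at 0, again without the matching count for Col-0. ORF240A stood at 1.82, 3.11 and 1.81 FPKM for Col-0 and 0.111, 0.488 and 0.0698 for cdc5, and its level differed by a log2 fold change of -1.40 ± 0.252 (SE) at a limma adjusted p of 0.012. ORF149 had a log2 fold change of -1.16 ± 0.190 (SE) at a limma adjusted p of 0.0084. ORF139A and ORF139B, a pair of repeat copies, summed to 1.73 FPKM for Col-0 and 0.181 for cdc5.

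**Figure D3:**
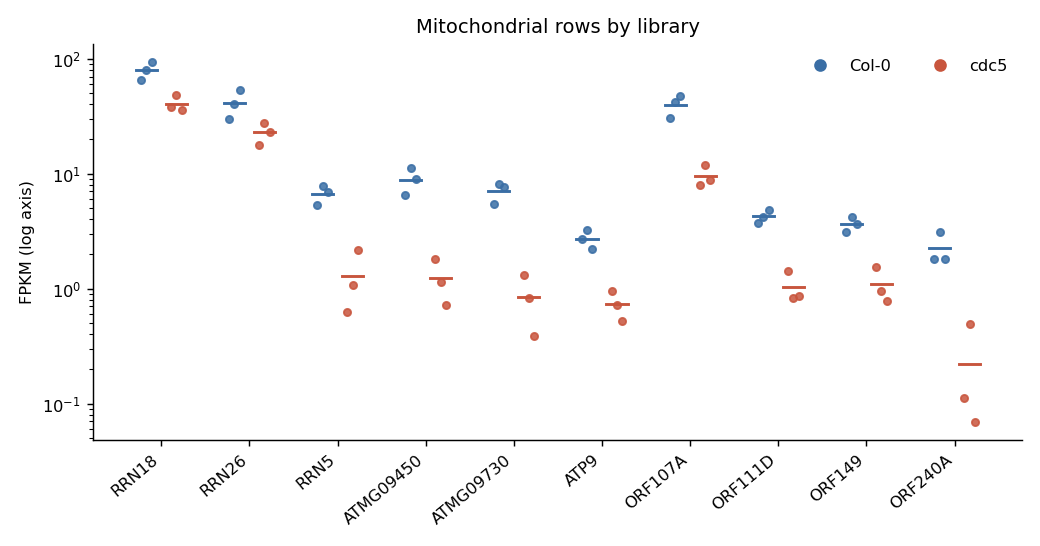
FPKM (log axis) by library for the 9 mitochondrial transcripts called lower and RRN26, which was not called, with a line at the mean of 3 libraries. In all 10 every cdc5 library lies under every Col-0 library.

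Much of the reference mitochondrial genome has a near-identical match in the nucleus. Chromosome 2 of Arabidopsis holds an insertion of mitochondrial DNA beside its centromere, and 17 matches of at least 1000 bases to the reference mitochondrial genome covered 269621 bases between chr2:3239038 and 3509765 (TAIR10.1) at an identity of 99.9%. The coding sequence of atp9 shows how close the copies are. Mitochondrial atp9 of the reference had 2 matches on chromosome 2. The nuclear copy shown, 225 bases on the minus strand at chr2:3251856-3252080, has 0 differences from it in DNA sequence. The DNA sequence alone therefore cannot tell the genomes apart there, and editing of the RNA was not examined.

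nuclear copy of atp9: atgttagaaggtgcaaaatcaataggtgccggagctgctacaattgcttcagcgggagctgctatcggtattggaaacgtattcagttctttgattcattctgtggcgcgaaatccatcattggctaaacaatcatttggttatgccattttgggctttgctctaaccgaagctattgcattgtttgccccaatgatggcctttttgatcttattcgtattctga

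Transcripts annotated inside the insertion had low levels, and their sum showed a difference close in size to that of the mitochondrial genome. Only 1 of them had a mean of at least 1 FPKM. They numbered 99 and summed to 21.9, 23.5 and 28.6 FPKM for Col-0 and to 7.50, 8.23 and 6.84 for cdc5, which is 30.5% of Col-0. Of the 99, 42 were lower without overlap and 2 higher, beside the 14.8% and 22.6% of all transcripts given above. AT2G07671, the transcript that holds the atp9 copy shown above, stood at 2.29, 0.850 and 2.11 FPKM for Col-0 and 0.742, 0.667 and 0.414 for cdc5. How the authors shared out fragments that match both places is not stated, and how much of either sum came from the other place cannot be told apart.

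**Figure D4:**
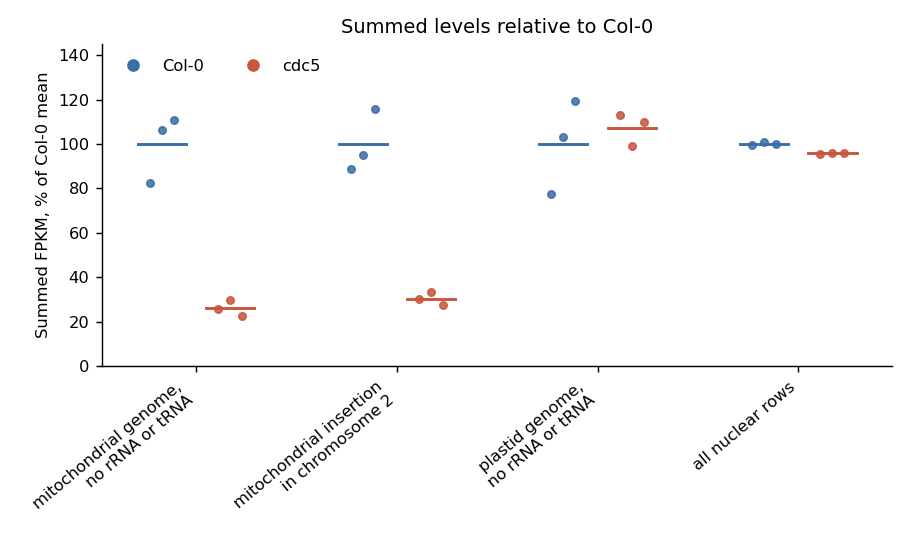
Summed FPKM in each library as a percentage of the Col-0 mean for the mitochondrial and plastid transcripts without rRNA and tRNA, the transcripts inside the chromosome 2 insertion, and all nuclear transcripts. Means in cdc5 are 26.2%, 107%, 30.5% and 95.8% of Col-0 in the same order.

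In the plastid genome the rRNAs again made up most of the sum. The gene for each rRNA lies in the inverted repeat and has an identical copy, so the copies are given as pairs. RRN16S, the small-subunit rRNA, summed over both copies to 102, 187 and 207 FPKM for Col-0 and 68.6, 123 and 85.9 for cdc5. RRN23S, the large-subunit rRNA, summed to 130, 232 and 262 FPKM for Col-0 and 97.1, 182 and 179 for cdc5. The genotypes overlapped in both, and none of the 4 transcripts was called (limma adjusted p of 0.15, 0.15, 0.38 and 0.56 for RRN16S.1, RRN16S.2, RRN23S.2 and RRN23S.1). Their log2 fold changes were -0.69, -0.96, -0.72 and -0.25 in that order, with SEs of 0.305, 0.421, 0.553 and 0.288. RRN16S.2 thus had the same estimate as mitochondrial RRN18 (-0.96, SE 0.174) with a larger SE. Col-0 replicate 1 had the lowest level of both pairs in its genotype, and without it RRN16S.1 was called lower (limma adjusted p = 0.025). Leaving out each of the other libraries in turn gave no call for RRN16S.1 (limma adjusted p of 0.15 to 0.33). Of the other pairs, RPS7, a protein of the small ribosomal subunit, summed over both copies to 1.44 ± 0.200 FPKM for Col-0 and 2.28 ± 0.722 for cdc5 without overlap, and RRN4.5S to 9.24 ± 2.24 and 10.4 ± 7.47 with overlap.

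The rRNAs let the genomes be set against each other within a library. RRN18 over both RRN16S copies had a mean ratio of 0.507 ± 0.116 in Col-0 and 0.452 ± 0.0838 in cdc5, and an exact two-sided permutation test gave p = 0.50. RRN26 over both RRN23S copies had a mean ratio of 0.203 ± 0.0290 in Col-0 and 0.155 ± 0.0279 in cdc5, with an exact two-sided permutation p of 0.20. Adjusted over the 2 ratios these were 0.50 and 0.40. With 3 libraries against 3, such a test cannot give a p under 0.10.

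RPL32, a protein of the large subunit of the plastid ribosome, had the highest mean over the 6 libraries among plastid transcripts other than the rRNAs, although RBCL was higher in Col-0. It stood at 4.58, 6.08 and 9.67 FPKM for Col-0 and 14.7, 7.75 and 15.5 for cdc5, and the genotypes overlapped through cdc5 replicate 2. Its log2 fold change of 0.81 (SE 0.349) was not called (limma adjusted p = 0.14). Its coding sequence is shown because oligo(dT) can also bind runs of A inside a transcript. It has 159 bases at Pt:113449-113607 on the plus strand (NC_000932.1), of which 39.6% are A, and runs of 5 or more A are in capitals.

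RPL32: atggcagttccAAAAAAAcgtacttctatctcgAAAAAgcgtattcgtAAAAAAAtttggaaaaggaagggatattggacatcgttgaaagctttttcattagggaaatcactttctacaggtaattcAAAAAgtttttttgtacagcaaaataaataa

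The longest run of A in RPL32 was 7 bases, against a median of 6 over the 87 protein-coding plastid transcripts. By its share of A over the genomic span, introns included, RPL32 ranked 7 among these 87, whose median was 31.4%. The median was 31.8% for the 11 protein-coding transcripts with every cdc5 library higher and 29.3% for the 5 with every one lower. No relation between the share of A and the level was tested.

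The plastid genes for the RNA polymerase core were the only plastid class whose summed level did not overlap between the genotypes. It was 6.65, 6.92 and 6.44 FPKM for Col-0 and 9.54, 8.44 and 9.16 for cdc5, or 136% of Col-0. RPOB, the beta subunit, stood at 3.66 ± 0.177 FPKM for Col-0 and 4.54 ± 0.239 for cdc5 and was not called (log2 fold change 0.25, limma adjusted p = 0.099). RPOC1, another subunit of the core, stood at 1.66 ± 0.267 and 2.47 ± 0.213 FPKM and was not called either (log2 fold change 0.39, limma adjusted p = 0.087). Of the 4 transcripts of this class RPOB, RPOC1 and RPOC2 were higher without overlap, beside 22.6% of all transcripts. RPOA, the remaining 1, overlapped between the genotypes.

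Genes of photosynthesis gave no call with all 6 libraries. RBCL, the large subunit of Rubisco, stood at 5.22, 9.08 and 12.3 FPKM for Col-0 and 5.37, 6.78 and 4.91 for cdc5 (limma adjusted p = 0.26, and 0.045 without Col-0 replicate 1). The limma adjusted p of RBCL reached 0.53 over the alternative fits listed at the end. PSBA, the D1 protein of photosystem II, stood at 2.60, 6.71 and 7.38 FPKM for Col-0 and 3.23, 5.59 and 3.03 for cdc5. The photosystem II transcripts summed to 99.2% of Col-0, those of photosystem I to 87.3% and those of the ATP synthase to 93.0%, all with overlap. The cytochrome b6f transcripts stood at 160% (1.98 FPKM for Col-0 and 3.17 for cdc5) and the NDH complex at 150% (1.22 and 1.84), also with overlap. Of these 6 and 12 transcripts 0 reached the level that entered the test. In both genotypes 3 of the 6 and 6 of the 12 were at or under the floor.

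A few plastid transcripts separated the genotypes at low levels. PSBE, the alpha subunit of cytochrome b559, had a mean of 0.823 FPKM for Col-0 and 1.72 for cdc5 (limma adjusted p = 0.12, and 0.049 without cdc5 replicate 1). The limma adjusted p of PSBE reached 0.28 over the alternative fits listed at the end. CEMA stood at 0.430 FPKM for Col-0 and 1.03 for cdc5. In the other direction ATPI, a membrane subunit of the ATP synthase, stood at 1.26 FPKM for Col-0 and 0.898 for cdc5 (limma adjusted p = 0.35).

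Most nuclear genes of the organelle RNA machinery were higher in cdc5. Over all 19778 genes tested, on summed FPKM, limma called 33.3% higher and 22.4% lower, with a median log2 fold change of 0.06. Of 9 genes for mitochondrial RNA polymerases and splicing factors 6 were called higher and 0 lower, with a median log2 fold change of 0.40. RPOTm, the phage-type polymerase of mitochondria, stood at 9.86 ± 0.404 FPKM for Col-0 and 18.1 ± 1.02 for cdc5 (log2 fold change 0.82, limma adjusted p = 1.0e-05). RPOTmp, which works in both organelles and was counted in 2 lists, rose from 3.79 to 8.00 FPKM. PMH1, a helicase for mitochondrial intron splicing, rose from 26.4 to 42.9 FPKM.

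On the plastid side, 7 of 8 genes for plastid RNA polymerases and sigma factors were called higher and 0 lower. RPOTp, the phage-type polymerase of plastids, stood at 12.6 ± 0.664 FPKM for Col-0 and 22.6 ± 0.159 for cdc5 (log2 fold change 0.80, limma adjusted p = 5.7e-06). SIG2, a sigma factor of the plastid-encoded polymerase, rose from 27.6 to 40.8 FPKM. Of 12 proteins bound to that polymerase 8 were called higher and 1 lower. PTAC2, PTAC6 and PTAC10 rose from 11.6 to 19.5, from 26.5 to 37.9 and from 19.8 to 29.5 FPKM. The gene called lower was FSD2, an iron superoxide dismutase, which fell from 24.9 to 21.0 FPKM and was named after its value was seen.

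Genes for the editing and decay of organelle RNA were called higher too. Of 8 MORF genes, cofactors of RNA editing, 6 were called higher and 1 lower, and MORF2 was not analysed here. MORF8 rose from 106.6 to 148 FPKM, MORF5 from 25.8 to 36.2 and MORF4 from 1.74 to 4.43. MORF7 was the one called lower, from 3.64 to 2.64 FPKM, and was named after its value was seen. All 5 nucleases of organelle RNA were called higher. RNJ, an endonuclease of plastid RNA, rose from 6.57 to 12.8 FPKM, RNR1, an exonuclease, from 9.12 to 13.6, and the polynucleotide phosphorylase of mitochondria, which degrades polyadenylated mitochondrial RNA, from 4.05 to 7.43.

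**Figure D5:**
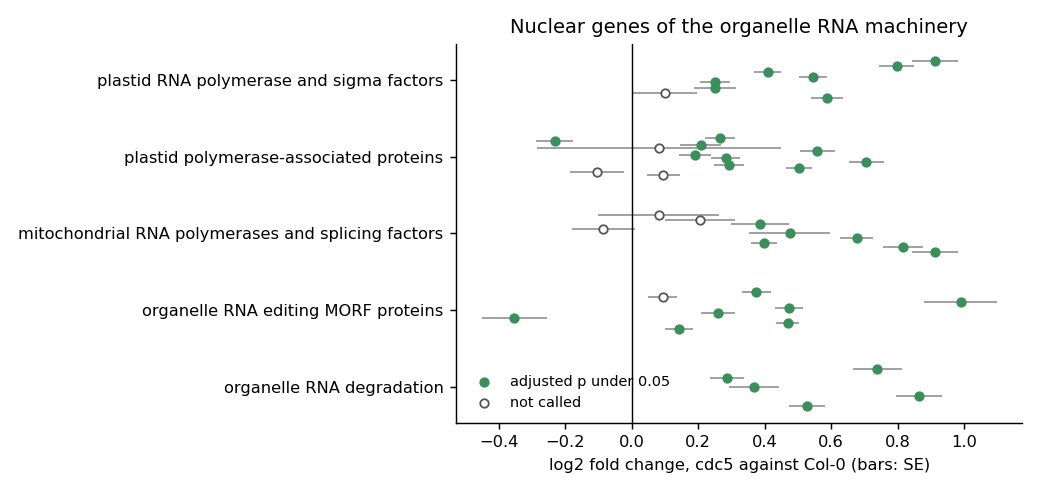
Log2 fold change of cdc5 against Col-0 with its standard error for nuclear genes of 5 lists of organelle RNA machinery, filled where the limma adjusted p is under 0.05. Nearly all filled points lie to the right of 0, and those to the left are FSD2 and MORF7.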

How the data were processed

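Polyadenylated RNA had been selected from 6 libraries, per the labels' protocols. The authors deposited a table of FPKM per transcript, with fold (ratio of means), log2, p-value and q-value columns from a test it does not name. StringTie 1.3.4d, HISAT2 2.0.4, edgeR, DESeq2 and cutadapt 1.9 are named, without roles, in the submitters' processing notes, with a mouse genome build that cannot apply here. Plastid coordinates matched the TAIR10.1 assembly for 111 of 119 transcripts, and mitochondrial coordinates matched for 0 of 132, so no mitochondrial sequence was read by position.

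Transcripts whose mean reached 1 FPKM were compared with limma 3.58.1 (R 4.3.3) on log2(FPKM + 1), with an intensity trend, robust moderation, no covariate and Benjamini-Hochberg adjustment over all tested. This scale understates changes of low transcripts. Nuclear genes were tested on summed FPKM. Sums over transcripts have no test, because the members were chosen together. Depth came from the steps of low FPKM values: 63.8% to 67.4% lay within 0.1 of a whole multiple, too few to recover counts. The floor for a genotype's mean is 3 fragments at the mean of its 3 library floors. Values after ± are SDs. The limma procedure was tested on simulated data.

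Named transcripts are the 5 most abundant of each genome, up to 6 called lower and 6 higher per genome without overlap, copy pairs, CDC5 and 3 genes per nuclear list. Others, including ATP9 and ORF149, members of low classes and plastid examples, were named after their values were seen. The members and gene lists were chosen with earlier results of these data known. Plots used Python 3.11.15 and matplotlib 3.10.9.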

Additional observations from a re-analysis of the deposited data

How the results depend on the processing

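Of the mitochondrial transcripts called lower, all 9 kept their call under each alternative that tested them. These were a pseudocount of 0.1, no filter, cyclic loess scaling, scaling to the nuclear total, a replicate block, an adjustment for transcript length added after the data were seen, and leaving out each library. With a filter at 5 FPKM, 3 of 4 mitochondrial transcripts tested were called, and with no filter 29 of 132. Leaving out single libraries gave 9 to 10 mitochondrial calls and 0 to 2 plastid calls lower and 0 to 1 higher: without Col-0 replicate 1 there were 2 plastid calls lower (RRN16S.1 and RBCL), and without cdc5 replicate 1 there was 1 higher (PSBE). RRN26 passed the threshold with the length adjustment (adjusted p = 0.042), with the replicate block (0.047) and without Col-0 replicate 1 (0.040). NAD5B passed with the length adjustment (0.029) and without Col-0 replicate 3 (0.021), RRN16S.1 without Col-0 replicate 1 (0.025), and RRN16S.2 with the block (0.036). The cause was not tested.

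On the log2 scale, the mitochondrial sum differed by -1.36 (-1.50 to -1.25 without single libraries) and by -1.93 without rRNA and tRNA. The plastid sum differed by -0.40 (-0.63 to -0.22) and reversed to 0.10 without rRNA and tRNA.

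Over all transcripts, same-numbered libraries did not deviate together (correlations of -0.002, -0.013 and 0.017), and they were taken to share only a number. Over the organelle transcripts alone these correlations were 0.153, 0.088 and 0.039, not all over 0.1. With a replicate block, 2989 transcripts were called higher and 2461 lower, against 4898 and 3620 without it, and 1 plastid transcript was called lower. Leaving out single libraries gave 3380 to 3910 calls higher and 2668 to 2948 lower. Of nuclear machinery genes, 31 were called higher (29 to 31 without single libraries) and 2 lower (2 each time), and 1 lower with a filter at 5 FPKM. Of all calls, 57.5% were higher, 66.2% with scaling to the nuclear total and 47.65% with the length adjustment. The planned adjustment for GC content was not run, since GC is not known for the mitochondrial transcripts. Depth limits the low transcripts: levels at or under the floor rest on an estimated 3 fragments or fewer per library on average.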
